A study of Arabidopsis thaliana with 23 samples.

Results

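The genes described here were lower in axillary tissue of the brc1-2 mutant and higher in axillary tissue of decapitated wild-type plants, each against the same intact wild-type plants of Arabidopsis thaliana. They were chosen from these data. Counts were divided by the library total and expressed as CPM, the usual unit for depth-scaled counts, and L was the log2 ratio of 2 group means after adding 0.25 CPM to each. A gene was a member where L was at most -0.5 in brc1-2, at least 0.5 after decapitation and below 1 in seedlings grown on rac-GR24, and where at least 1 axillary group averaged at least 1 CPM. The rule found 35 members among 32833 genes of the axillary table, of which 19097 passed the 1 CPM floor. All 35 were also in the seedling table. Because the rule used these contrasts, the members' values in them are a description, and calls or lost calls given for a member are part of it and support nothing.

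The series, in the Col-0 background, held 23 samples, of which the 15 RNA-seq libraries were used. Axillary tissue, meaning axillary buds with the surrounding axil of the rosette leaf below, came from decapitated wild-type plants (Decapitated_WT), from intact plants carrying the brc1-2 allele (Intact_brc1-2) and from intact wild-type plants (Intact_WT), with 3 libraries each. Decapitation removed the main shoot below its lowest cauline node once the main inflorescence was about 1 cm long; the time from decapitation to harvest, plant age and any pooling are not stated in the sources used. Whole wild-type seedlings had spent 7 days on plates with 2.5 µM rac-GR24 or, as mock, with DMSO, with 3 libraries each. The labels name 1 mutant allele and no complemented line, and nothing in them shows that replicate libraries were made from different plants.

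BRC1 (BRANCHED1, AT3G18550) encodes a TCP transcription factor that acts in axillary buds and holds back their outgrowth. Buds of brc1 mutants grow out more readily. Decapitation removes the shoot tip, a source of the auxin that restrains lower buds, and BRC1 transcript is known to drop when buds are released. Strigolactones, for which rac-GR24 is a synthetic racemic analogue, restrain branching partly through BRC1. A brc1 mutant and a decapitated plant thus share the tendency to branch, yet the members went opposite ways in them. Both contrasts use the same Intact_WT libraries, so they are not independent of each other. By the same L thresholds and CPM floor, but without the seedling clause, 43 genes went the members' way. Counted likewise, 93 genes formed the mirror image, higher in brc1-2 and lower after decapitation, while 1450 were lower in both and 914 higher in both.

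BRC1 itself had 1.77, 1.75 and 1.62 CPM in Decapitated_WT, 0.04, 0.07 and 0.03 CPM in Intact_brc1-2, and 7.75, 6.5 and 7.79 CPM in Intact_WT. It was thus lower in both branching conditions, and the 3 groups did not overlap. Library totals were 47462342 to 61228766 counts in axillary tissue and 31209344 to 44442493 in seedlings. In bulk tissue, fewer cells of a type and less RNA per cell cannot be told apart. Summed leaf mesophyll markers (6 genes) came to 24800 to 25700 CPM in Decapitated_WT, 36200 to 36400 in Intact_brc1-2 and 32600 to 32700 in Intact_WT. Summed flower markers (5 genes) came to 30.9 to 35.4 CPM in Decapitated_WT, 48.2 to 51.6 in Intact_brc1-2 and 25.6 to 26.8 in Intact_WT. Tapetum markers (4 genes) came to 7.31 to 7.50 CPM in Decapitated_WT, 18.7 to 19.7 in Intact_brc1-2 and 6.66 to 7.40 in Intact_WT. Guard cell and myrosin cell markers (6 genes) came to 62.4 to 66.2 CPM in Decapitated_WT, 83.8 to 89.6 in Intact_brc1-2 and 51.8 to 57.0 in Intact_WT. Phloem markers (6 genes) came to 243 to 246 CPM in Decapitated_WT, 238 to 246 in Intact_brc1-2 and 316 to 326 in Intact_WT. Xylem and secondary wall sums (6 genes) separated all 3 groups, at 153 to 157 CPM in Decapitated_WT, 215 to 219 in Intact_brc1-2 and 193 to 200 in Intact_WT. Cambium and epidermis sums were lower in Decapitated_WT and Intact_brc1-2, which overlapped, than in Intact_WT. Seed storage sums were higher in Decapitated_WT than in the other 2 groups, and trichome sums overlapped among all 3. Single epidermis markers went both ways. After decapitation 4 of the 6 were called higher and 2 lower, where 29.4% and 33.5% of all genes were. In brc1-2, 3 were called higher and 2 lower, where 30.4% and 30.5% were. The epidermis marker PDF1 was called in the members' direction in both contrasts, at 0.24 ± 0.03 after decapitation (edgeR adjusted p = 7.7e-09) and -0.12 ± 0.03 in brc1-2 (adjusted p = 0.00043). The part of such tissue differences in the members' values was not tested. Markers of the shoot meristem and leaf axil (8 genes), the labelled tissue, were present at a summed 88.7 to 97.0 CPM in Decapitated_WT, 106 to 109 in Intact_brc1-2 and 102 to 105 in Intact_WT.

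**Figure D1:**
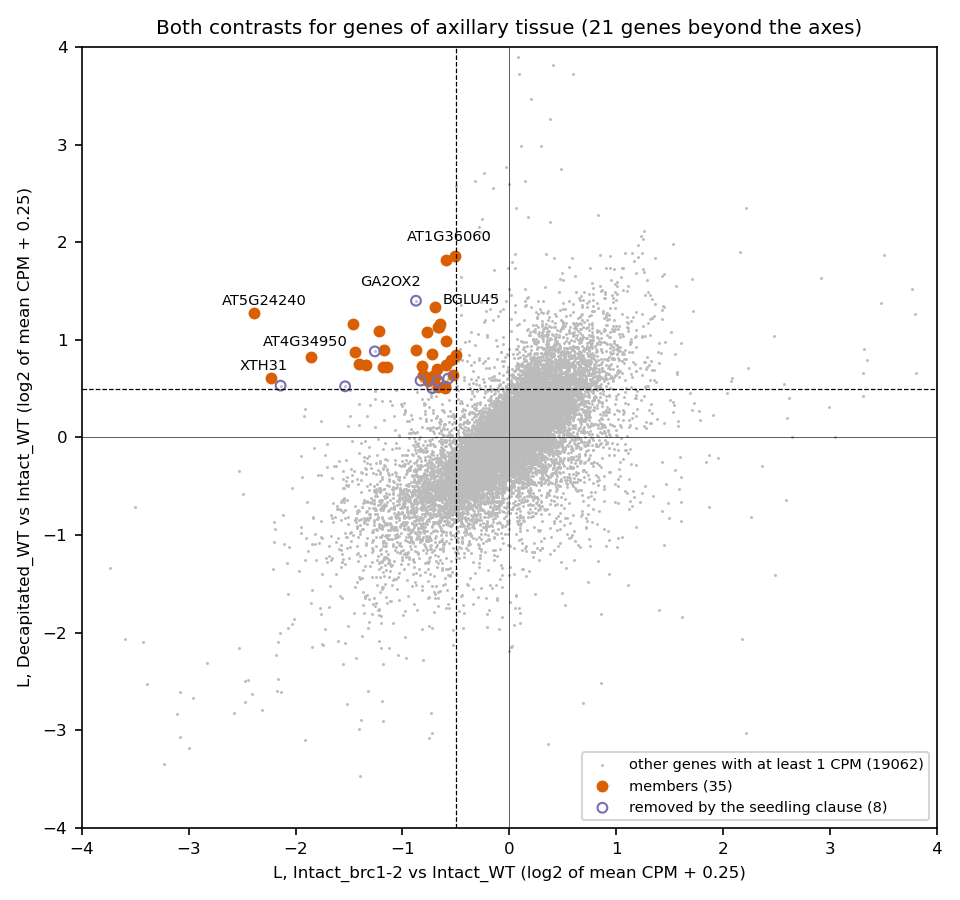
Each point is a gene with a mean of at least 1 CPM in an axillary group; the x axis is L for Intact_brc1-2 against Intact_WT and the y axis L for Decapitated_WT against Intact_WT, with dashed lines at the thresholds of -0.5 and 0.5. The 35 members (filled) lie in the upper left corner by the rule, and open circles are the 8 genes that only the seedling clause removed.

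The members' summed CPM was 1281 to 1311 in Decapitated_WT, 362 to 365 in Intact_brc1-2 and 754 to 780 in Intact_WT. PYK10, the most abundant member, made up a large part of these sums, and without it they were 766 to 776 in Decapitated_WT, 185 in each Intact_brc1-2 library and 435 to 459 in Intact_WT. Every Decapitated_WT library lay above every Intact_WT library for 35 of 35 members, as did 32.9% of all 21539 genes tested. Every Intact_brc1-2 library lay below every Intact_WT library for 34 members, against 32.2% of all genes, and both held for 34 members, against 2.27%; the exception was AT4G15690. With edgeR's quasi-likelihood test and an adjusted p under 0.05, 35 members were called lower in Intact_brc1-2 against Intact_WT, where 30.5% of all genes were, and 34 were called higher in Decapitated_WT, where 29.4% were. Against Intact_brc1-2, 35 members were called higher in Decapitated_WT, where 24.4% of all genes were. Nothing is read from these counts, since the same contrasts chose the genes.

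The members differed in which condition moved them more. The change in brc1-2 was the larger for 20 members and the change after decapitation for 15. L ranged from -2.39 to -0.50 in brc1-2, with a median of -0.73, and from 0.50 to 1.86 after decapitation, with a median of 0.79; the medians over all genes at 1 CPM or more were 0.00. L was at most -1 in brc1-2 for 11 members and at least 1 after decapitation for 10. Only AT5G24240, AT4G01985 and AT5G38930 passed a threshold of 1 in both directions. Most members were modestly expressed: the median of the members' means was 6.59 CPM in Decapitated_WT, 1.57 in Intact_brc1-2 and 3.34 in Intact_WT, and 11 members averaged under 1 CPM in Intact_brc1-2.

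**Figure D2:**
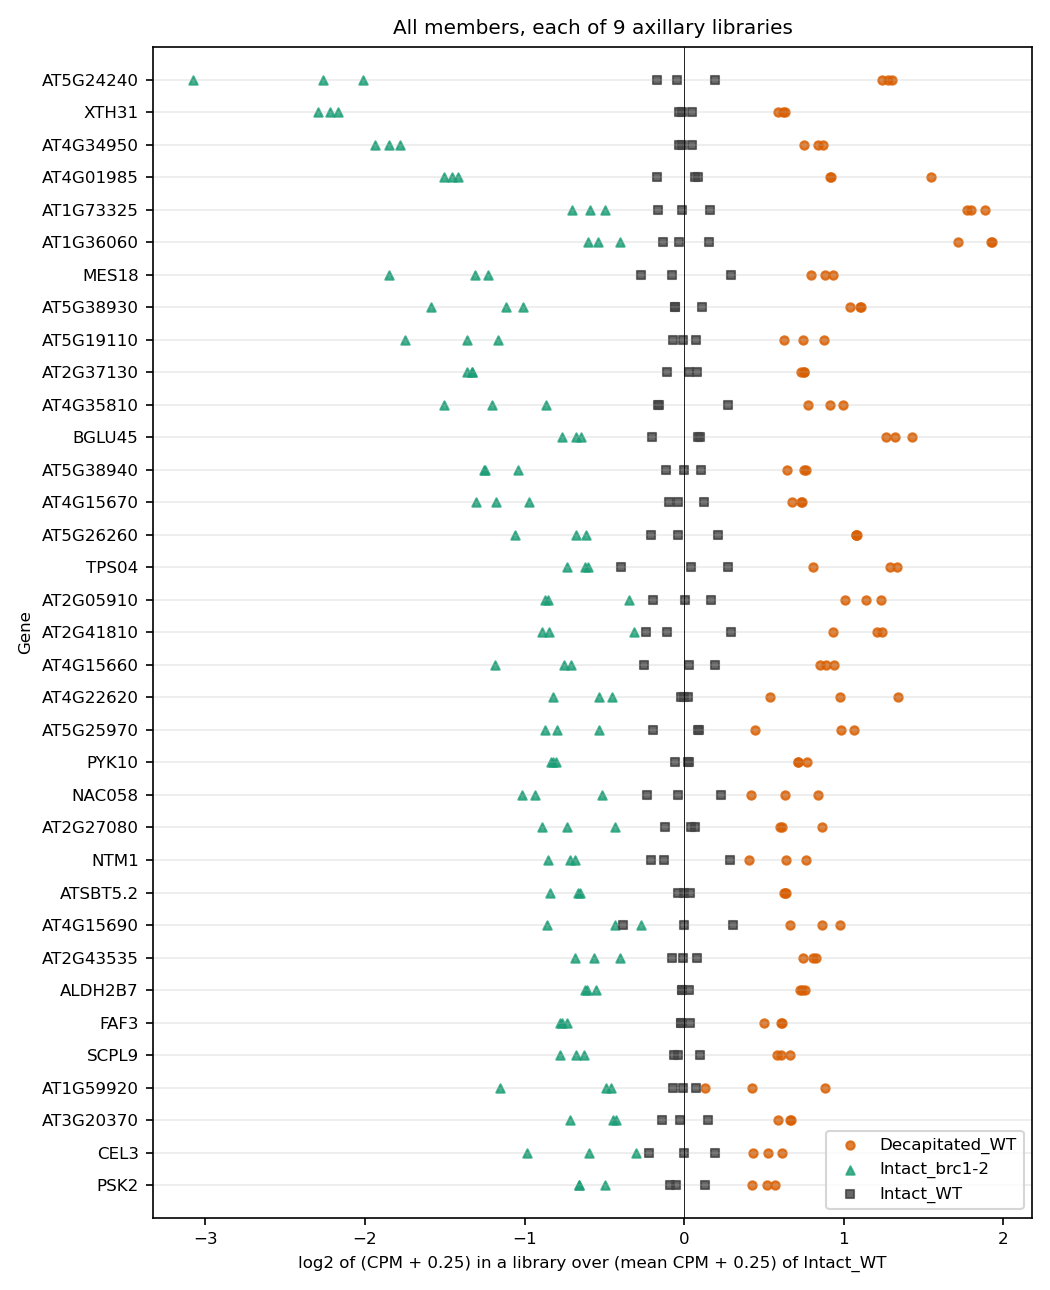
Each row is 1 of the 35 members, sorted by the difference between its changes in the 2 contrasts, and each mark is 1 of 9 axillary libraries, placed by log2 of its CPM over the Intact_WT mean (0.25 CPM added). Circles for Decapitated_WT lie right of the Intact_WT squares in all rows, and triangles for Intact_brc1-2 lie left of them in all rows but AT4G15690, where they overlap.

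Genes acting on the cell wall included one of the strongest members. XTH31 (AT3G44990, chromosome 3, 16446935 to 16448844, minus strand, TAIR10 coordinates as deposited) encodes a xyloglucan endotransglucosylase/hydrolase. Enzymes of this family cut, or cut and rejoin, the xyloglucan chains tethering cellulose and are studied for their part in wall extension. XTH31 had 120.4, 124.2 and 123.3 CPM in Decapitated_WT, 17.0, 17.6 and 16.1 CPM in Intact_brc1-2, and 79.2, 82.8 and 78.2 CPM in Intact_WT. The groups did not overlap, and the loss in brc1-2 was much the larger of the changes, with an edgeR log2 change of -2.25 ± 0.04 (SE) against 0.59 ± 0.04 after decapitation. CEL3 (AT1G71380, chromosome 1), a cellulase of glycosyl hydrolase group 9B, was far scarcer, at 3.42, 3.20 and 2.99 CPM in Decapitated_WT, 1.70, 0.96 and 1.34 in Intact_brc1-2, and 2.49, 1.81 and 2.15 in Intact_WT. Its groups did not overlap but lay close together, and the call after decapitation was lost without the second Intact_WT library.

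The pattern of XTH31 was not that of wall-loosening genes at large. Of 14 genes in a list of expansins and XTHs, 7 were called lower and 5 higher in brc1-2, where 30.5% and 30.4% of all genes were, and 7 were called lower and 6 higher after decapitation, where 33.5% and 29.4% were. Besides XTH31, the only one called lower in brc1-2 and higher after decapitation was EXPA4, an expansin, with log2 changes of -0.57 ± 0.03 (edgeR adjusted p = 3.4e-15) and 0.13 ± 0.03 (adjusted p = 0.00084). XTH24 fell in both, with log2 changes of -1.86 in brc1-2 (adjusted p = 1.2e-26) and -1.60 after decapitation (adjusted p = 3.7e-25), and XTH9 rose in both, by 0.30 (adjusted p = 9.9e-09) and 0.62 (adjusted p = 2.7e-15). Among 24 other XTH genes tested, 3 were called in the members' direction in both contrasts, or 12.5%, beside 1.49% of all genes: XTH20, XTH32 and XTR6. XTH32, at 121, 81.5 and 108 mean CPM in Decapitated_WT, Intact_brc1-2 and Intact_WT, changed by -0.42 ± 0.04 in brc1-2 (adjusted p = 4.2e-11) and by 0.13 ± 0.03 after decapitation (adjusted p = 0.002), and XTR6 by -0.38 ± 0.12 (adjusted p = 0.0063) and 0.74 ± 0.11 (adjusted p = 1.2e-06). No other gene of the GH9B group was called this way among 9 tested.

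A pair of members encode beta-glucosidases, enzymes that remove glucose from stored glucosides. PYK10 (BGLU23, AT3G09260, chromosome 3, 2840477 to 2843781, minus strand) is the main beta-glucosidase of the ER bodies of roots and seedlings. It had 515, 516 and 535 CPM in Decapitated_WT, 178, 180.0 and 176 CPM in Intact_brc1-2, and 319, 321 and 302 CPM in Intact_WT. The 3 groups stood well apart, with edgeR log2 changes of 0.70 ± 0.03 after decapitation and -0.82 ± 0.03 in brc1-2. Per kilobase of exon it was also the most abundant member, at 289 CPM per kb in Decapitated_WT, 98.6 in Intact_brc1-2 and 174 in Intact_WT. PYK10 is on a list of root markers, whose sum over 6 genes was 580 to 605 CPM in Decapitated_WT, 245 to 253 in Intact_brc1-2 and 368 to 382 in Intact_WT. Without PYK10 the sum was 64.9 to 69.8 CPM in Decapitated_WT, 68.9 to 75.6 in Intact_brc1-2 and 60.4 to 65.4 in Intact_WT, and the root hair factor RHD6 had no counts in any axillary group. No other root marker was called lower in brc1-2, where SCR rose by 0.26 ± 0.05 (edgeR adjusted p = 6.5e-05). After decapitation SCR and WOX5 were called higher, as PYK10 was, by 0.21 ± 0.05 (adjusted p = 0.00072) and by 1.74 ± 0.49 (adjusted p = 0.003), WOX5 at under 1 CPM in each group.

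BGLU45 (AT1G61810, chromosome 1, 22829921 to 22834728, plus strand) belongs to a small group of beta-glucosidases that act on glucosides of monolignols, the building blocks of lignin. Its level was 10.1, 11.4 and 10.5 CPM in Decapitated_WT, 2.29, 2.51 and 2.45 CPM in Intact_brc1-2, and 3.5, 4.37 and 4.35 CPM in Intact_WT. Here decapitation made the larger difference, with log2 changes of 1.36 ± 0.11 after decapitation and -0.76 ± 0.12 in brc1-2. The next gene on the same strand, BGLU46 (AT1G61820), encodes a related enzyme and was no member because its change in brc1-2 was too small. BGLU46 had 21.5, 23.6 and 23 CPM in Decapitated_WT, 8.39, 9.28 and 8.35 in Intact_brc1-2, and 10.6, 11.4 and 12 in Intact_WT. Both of its changes passed the test, at 0.97 ± 0.07 after decapitation (edgeR adjusted p = 1.1e-12) and -0.39 ± 0.07 in brc1-2 (adjusted p = 5.3e-05). The gene on the other side, GPT2, a plastid sugar phosphate transporter, rose in both contrasts, by 3.72 ± 0.18 after decapitation (adjusted p = 2.4e-16) and 0.53 ± 0.23 in brc1-2 (adjusted p = 0.043). In the BGLU family 3 of 29 other genes tested were called in both directions, or 10.3%, beside 1.49% of all genes: BGLU46, BGLU15 and BGLU18. BGLU18, another abundant ER-body enzyme, had mean levels of 2630 CPM in Decapitated_WT, 1830 in Intact_brc1-2 and 2190 in Intact_WT, with log2 changes of 0.24 ± 0.02 (adjusted p = 7.3e-11) and -0.26 ± 0.02 (adjusted p = 8.5e-12). Reads of near-identical family members may be shared between them, and how such reads were counted is not stated in the sources used.

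Further enzymes of metabolism and defence formed a mixed group. ALDH2B7 (AT1G23800, chromosome 1), a mitochondrial aldehyde dehydrogenase, had 44.8, 45.4 and 44.5 CPM in Decapitated_WT, 18.2, 17.5 and 17.3 in Intact_brc1-2, and 26.4, 26.5 and 27.3 in Intact_WT. It was among the tightest of the members within groups, with log2 changes of 0.72 ± 0.05 after decapitation and -0.60 ± 0.05 in brc1-2. In the ALDH family 2 of 13 others tested, ALDH12A1 and ALDH2B4, were called in both directions, where 1.49% of all genes were, each by less than 0.4 on the log2 scale. ATSBT5.2 (AT1G20160, chromosome 1), a subtilisin-like serine protease, had 39.4, 39.2 and 39.4 CPM in Decapitated_WT, 15.8, 14 and 16.0 in Intact_brc1-2, and 25.3, 24.6 and 26.0 in Intact_WT. The reference names only 11 genes as SBT, and none of the 8 others tested was called in both directions.

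MES18 (AT5G58310, chromosome 5) belongs to the methyl esterases, several of which release hormones from their methyl esters. Its level was 3.11, 2.99 and 2.80 CPM in Decapitated_WT, 0.24, 0.50 and 0.46 in Intact_brc1-2, and 1.21, 1.90 and 1.42 in Intact_WT. Exons of other genes overlap 28.2% of its exon length, so part of its counts cannot be assigned with certainty. None of 15 other MES genes tested was called in both directions, where 1.49% of all genes were. Over all 12 families looked at, 11 of 282 relatives tested were called so, or 3.9%. TPS04 (AT1G61120, chromosome 1) is geranyllinalool synthase, which makes the precursor of a volatile homoterpene released after jasmonate treatment or insect attack. It was close to the detection floor outside decapitated plants, at 1.62, 1.04 and 1.56 CPM in Decapitated_WT, 0.24, 0.23 and 0.20 in Intact_brc1-2, and 0.51, 0.31 and 0.64 in Intact_WT. No library of one group overlapped another, but the call in brc1-2 was lost without the third Intact_WT library.

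Of 3 jasmonate lists, only the output list held a member, TPS04. Of 15 jasmonate output genes tested, TPS04 included, 9 were called lower and 3 higher in brc1-2, where 30.5% and 30.4% of all genes were, and 8 were called lower and 7 higher after decapitation, where 33.5% and 29.4% were. Besides TPS04, which the rule chose for it, 2 of the other 14 went in the members' direction in both, VSP2 and JR1, where 1.49% of all genes did. VSP2, a vegetative storage protein with anti-insect activity, averaged 339 CPM in Decapitated_WT, 114 in Intact_brc1-2 and 262 in Intact_WT, with log2 changes of 0.35 ± 0.03 (edgeR adjusted p = 4.9e-11) and -1.20 ± 0.03 (adjusted p = 1e-22). None of 14 jasmonate synthesis genes and none of 17 jasmonate repressor and turnover genes did so; 11 of the synthesis genes were called lower in brc1-2 and 11 after decapitation, beside the same 30.5% and 33.5% of all genes. Of the repressor and turnover genes, 11 were called lower in brc1-2, and 9 lower and 2 higher after decapitation. Those 2 were CYP94B3, which oxidises jasmonoyl-isoleucine, at 6.01 ± 0.54 (adjusted p = 1.2e-10), and JAZ10, a jasmonate repressor, at 1.39 ± 0.08 (adjusted p = 1.4e-14); neither was called in brc1-2. DAD1, a lipase gene of jasmonate synthesis, was called higher after decapitation at a mean of only 0.25 CPM, and VSP1 rose in both contrasts, by 1.37 ± 0.03 after decapitation (adjusted p = 1.7e-23) and 0.75 ± 0.03 in brc1-2 (adjusted p = 8.4e-18). PDF1.2, a plant defensin, fell in both contrasts, with log2 changes of -5.14 in brc1-2 (adjusted p = 3.1e-30) and -2.55 after decapitation (adjusted p = 1.8e-25).

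SCPL9 (AT2G23010, chromosome 2, 9798757 to 9802676, plus strand) encodes a serine carboxypeptidase-like protein and ends a run of related genes that includes SNG1, the sinapoylglucose:malate sinapoyltransferase. It had 17.2, 18.3 and 17.6 CPM in Decapitated_WT, 7.30, 6.56 and 7.06 CPM in Intact_brc1-2, and 11.1, 10.9 and 12.3 CPM in Intact_WT. Its neighbour SCPL10 (AT2G23000), the anthocyanin sinapoyltransferase gene, had 87.7, 87.1 and 88.6 CPM in Decapitated_WT, 51.0, 54.8 and 53.2 in Intact_brc1-2, and 69.8, 68.3 and 71.5 in Intact_WT. SCPL10 thus moved as SCPL9 did, with log2 changes of 0.30 ± 0.04 after decapitation (edgeR adjusted p = 3.7e-08) and -0.40 ± 0.04 in brc1-2 (adjusted p = 2.2e-10). The 3 genes before it, SCPL11, SCPL13 and SNG1, were called lower after decapitation. SCPL10 was the only one of 35 other SCPL genes tested that was called in both directions, where 1.49% of all genes were.

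Regulators and signalling genes made up the next group. PSK2 (AT2G22860, chromosome 2) encodes a precursor of phytosulfokine, a sulphated peptide that promotes cell expansion and proliferation. It had 9.32, 8.43 and 9.0 CPM in Decapitated_WT, 3.84, 3.85 and 4.33 in Intact_brc1-2, and 5.83, 6.83 and 5.98 in Intact_WT, the smallest change after decapitation among the members by L, at 0.50. Of 3 other PSK genes tested, PSK5 was called in both directions, where 1.49% of all genes were, with a log2 change of -1.02 ± 0.10 in brc1-2 (edgeR adjusted p = 5.2e-10) and of 0.22 ± 0.09 after decapitation (adjusted p = 0.043). FAF3 (AT5G19260, chromosome 5) belongs to the FAF family, whose overexpression changes the size of the shoot meristem. FAF3 had 29.3, 27.2 and 29.5 CPM in Decapitated_WT, 11.1, 11.4 and 11.2 in Intact_brc1-2, and 19, 19.7 and 19 in Intact_WT, with log2 changes of 0.55 ± 0.06 and -0.78 ± 0.06. The other 3 FAF genes were not called lower in brc1-2, where 1 was called higher, and 2 of them were called higher after decapitation; of all genes, 30.5% were called lower and 30.4% higher in brc1-2, and 29.4% higher after decapitation.

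NTM1 (AT4G01540, chromosome 4), a NAC transcription factor held at a membrane until it is released by proteolysis and tied to cell division, had 3.09, 4.03 and 3.67 CPM in Decapitated_WT, 1.29, 1.319 and 1.14 in Intact_brc1-2, and 2.06, 2.82 and 1.93 in Intact_WT. NAC058 (AT3G18400, chromosome 3), another NAC factor, had 2.31, 1.96 and 1.66 CPM in Decapitated_WT, 0.75, 0.50 and 0.46 in Intact_brc1-2, and 0.97, 1.43 and 1.14 in Intact_WT. Groups did not overlap for either gene, but the call of NAC058 after decapitation was lost without the first Decapitated_WT library or without the first Intact_WT library. None of 77 other NAC genes tested was called in both directions, where 1.49% of all genes were, so the count is near that background. In the NAC family 29 were called lower in brc1-2, where 30.5% of all genes were, and 38 lower after decapitation, where 33.5% were. AT4G22620 (SAUR34 by synonym, chromosome 4), of a family of small auxin-induced proteins, had 1.12, 1.5 and 0.76 CPM in Decapitated_WT, 0.26, 0.14 and 0.23 in Intact_brc1-2, and 0.45, 0.44 and 0.44 in Intact_WT. It was the scarcest of the regulators, and its call in brc1-2 was lost without the first Intact_WT library or without brc1-2 library 2a. Of 65 other SAUR genes tested, 21 were called lower and 18 higher in brc1-2, where 30.5% and 30.4% of all genes were, and 40 lower and 2 higher after decapitation, where 33.5% and 29.4% were. AT1G75580 alone was called in the members' direction in both, or 1.54%, near the 1.49% of all genes.

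The remaining 21 members carry only a locus identifier in the reference, and no role is given for them. The most abundant were AT2G37130 on chromosome 2 and AT4G34950 on chromosome 4. AT2G37130 had 168, 169 and 166 CPM in Decapitated_WT, 39.7, 38.8 and 39.7 in Intact_brc1-2, and 92.7, 106 and 102 in Intact_WT. AT4G34950 had 152, 143 and 156 CPM in Decapitated_WT, 22.0, 24.6 and 23.4 in Intact_brc1-2, and 84.2, 83.3 and 87.9 in Intact_WT. For both, the loss in brc1-2 exceeded the gain after decapitation, with log2 changes of -1.35 ± 0.04 against 0.72 ± 0.04 for AT2G37130 and of -1.87 ± 0.04 against 0.79 ± 0.04 for AT4G34950.

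AT5G24240, on chromosome 5, held the widest span of any member. It had 9.47, 9.88 and 9.69 CPM in Decapitated_WT, 0.24, 0.61 and 0.77 CPM in Intact_brc1-2, and 4.45, 3.73 and 3.41 CPM in Intact_WT, so it was nearly absent from the mutant. Its log2 changes were 1.3 ± 0.15 after decapitation and -2.81 ± 0.21 in brc1-2. AT4G01985, on chromosome 4, had 5.21, 5.18 and 8.15 CPM in Decapitated_WT, 0.83, 0.77 and 0.80 in Intact_brc1-2, and 2.31, 2.77 and 2.82 in Intact_WT. The third Decapitated_WT library stood above the other 2 there, while the brc1-2 libraries were nearly equal.

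AT1G36060 and AT1G73325, both on chromosome 1, showed the opposite balance, with a large gain after decapitation and a small loss in brc1-2. AT1G36060 had 11.5, 13.4 and 13.4 CPM in Decapitated_WT, 2.12, 2.46 and 2.22 in Intact_brc1-2, and 3.74, 3.01 and 3.26 in Intact_WT, with log2 changes of 1.91 ± 0.11 and -0.56 ± 0.13. AT1G73325 had 12.2, 13.2 and 12.5 CPM in Decapitated_WT, 2.18, 2.33 and 1.99 in Intact_brc1-2, and 3.01, 3.83 and 3.37 in Intact_WT, with log2 changes of 1.86 ± 0.11 and -0.66 ± 0.13. Lying 432 bases from AT1G73325 on the same strand, DR4 (AT1G73330, named for its repression by drought) moved in the same 2 directions with the balance reversed. DR4 had 410.0, 405 and 386 CPM in Decapitated_WT, 87.7, 83.5 and 89.1 in Intact_brc1-2, and 335, 325 and 320.0 in Intact_WT. Its log2 changes were 0.26 ± 0.03 after decapitation (edgeR adjusted p = 5.8e-08) and -1.92 ± 0.03 in brc1-2 (adjusted p = 3.6e-26).

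AT2G43535 averaged 28.0 CPM in Decapitated_WT, 10.9 in Intact_brc1-2 and 16.1 in Intact_WT, and AT3G20370 averaged 17.5, 7.65 and 11.1 CPM in the same groups. AT4G35810 had 6.03, 6.67 and 7.08 CPM in Decapitated_WT, 1.35, 1.76 and 1.05 in Intact_brc1-2, and 3.03, 3.05 and 4.20 in Intact_WT. AT5G26260 had 5.23, 5.25 and 5.23 CPM in Decapitated_WT, 1.44, 1.37 and 1.00 in Intact_brc1-2, and 2.00, 2.28 and 2.76 in Intact_WT. AT5G26260 was thus nearly constant among decapitated libraries. Of the rest, AT2G27080, AT5G25970 and AT2G05910 averaged 4.64, 3.76 and 3.39 CPM in Decapitated_WT, 1.64, 1.09 and 0.80 in Intact_brc1-2, and 2.76, 1.97 and 1.42 in Intact_WT. AT1G59920 and AT2G41810 were the scarcest. AT1G59920 had 2.08, 1.45 and 1.14 CPM in Decapitated_WT, 0.67, 0.32 and 0.65 in Intact_brc1-2, and 1.01, 0.96 and 1.09 in Intact_WT, and it was the member not called after decapitation; its call in brc1-2 was lost without brc1-2 library 2a. AT2G41810 had 1.41, 1.38 and 1.1 CPM in Decapitated_WT, 0.32, 0.14 and 0.13 in Intact_brc1-2, and 0.61, 0.35 and 0.41 in Intact_WT, and its call in brc1-2 was lost in 3 of the fits that left out a library.

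Several members lay beside one another or beside genes that moved with them. On chromosome 4, AT4G15660, AT4G15670 and AT4G15690 fell within a run of 5 genes on the plus strand, from AT4G15660 to AT4G15700. AT4G15660 had 3.42, 3.55 and 3.33 CPM in Decapitated_WT, 0.93, 0.62 and 0.96 in Intact_brc1-2, and 2.02, 1.78 and 1.42 in Intact_WT. AT4G15670 had 4.43, 4.46 and 4.26 CPM in Decapitated_WT, 1.19, 0.89 and 1.00 in Intact_brc1-2, and 2.49, 2.82 and 2.39 in Intact_WT. AT4G15690, the member with overlapping groups, had 4.43, 4.81 and 3.81 CPM in Decapitated_WT, 1.17, 1.66 and 1.88 in Intact_brc1-2, and 1.72, 2.93 and 2.32 in Intact_WT. Its call in brc1-2 was lost without the second Intact_WT library or without the first brc1-2 library. The other 2 genes of the run were no members but stood close to the rule. AT4G15700 had 5.95, 6.28 and 5.69 CPM in Decapitated_WT, 3.14, 2.51 and 2.84 in Intact_brc1-2, and 4.09, 4.65 and 3.55 in Intact_WT, with log2 changes of 0.51 ± 0.13 (edgeR adjusted p = 0.00092) and -0.54 ± 0.14 (adjusted p = 0.0011). AT4G15680 was called higher after decapitation, at 1.15 ± 0.19 (adjusted p = 6.3e-06), but not lower in brc1-2, at -0.25 ± 0.21 (adjusted p = 0.3).

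On chromosome 5, AT5G38930 and AT5G38940 were adjacent members on the plus strand. AT5G38930 had 5.62, 5.38 and 5.65 CPM in Decapitated_WT, 1.11, 0.66 and 1.01 in Intact_brc1-2, and 2.37, 2.70 and 2.38 in Intact_WT. AT5G38940 was more abundant, at 22.8, 24.6 and 24.8 CPM in Decapitated_WT, 5.97, 6.93 and 5.93 in Intact_brc1-2, and 13.4, 14.5 and 15.6 in Intact_WT. The nearest tested genes beside this pair moved otherwise. BR6OX1 rose in brc1-2, by 1.29 ± 0.30 (edgeR adjusted p = 0.00046), and was not called after decapitation, at -0.77 ± 0.34 (adjusted p = 0.053). AT5G38900 was called lower after decapitation, at -0.60 ± 0.24 (adjusted p = 0.028), and not called in brc1-2, at -0.20 ± 0.23 (adjusted p = 0.46). Elsewhere on that chromosome, AT5G19110 had 8.93, 10.7 and 9.73 CPM in Decapitated_WT, 1.52, 2.07 and 2.40 in Intact_brc1-2, and 5.68, 6.03 and 5.43 in Intact_WT. Its neighbour AT5G19100 changed in the same directions, at 0.55 ± 0.18 after decapitation (edgeR adjusted p = 0.0094) and -0.57 ± 0.19 in brc1-2 (adjusted p = 0.013). The neighbour on the other side, AT5G19120, fell in both contrasts, at -0.87 ± 0.05 after decapitation (adjusted p = 2.1e-14) and -0.41 ± 0.05 in brc1-2 (adjusted p = 5.8e-08). Over all members, the nearest tested gene on each side gave 70 places, 4 of them held by members, and 65 other genes. Of these 65, 6 were called lower in brc1-2 and higher after decapitation, or 9.23%, beside 1.49% of all genes tested: BGLU46, DR4, SCPL10, AT3G44970, AT4G15700 and AT5G19100. AT3G44970, 11810 bases from XTH31, averaged 10.4 CPM in Decapitated_WT, 4.86 in Intact_brc1-2 and 8.35 in Intact_WT, and its change after decapitation was small, at 0.28 ± 0.11 (adjusted p = 0.026). Neighbours in such runs can be recent copies of each other and share reads, and their sequences were not used here.

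**Figure D3:**
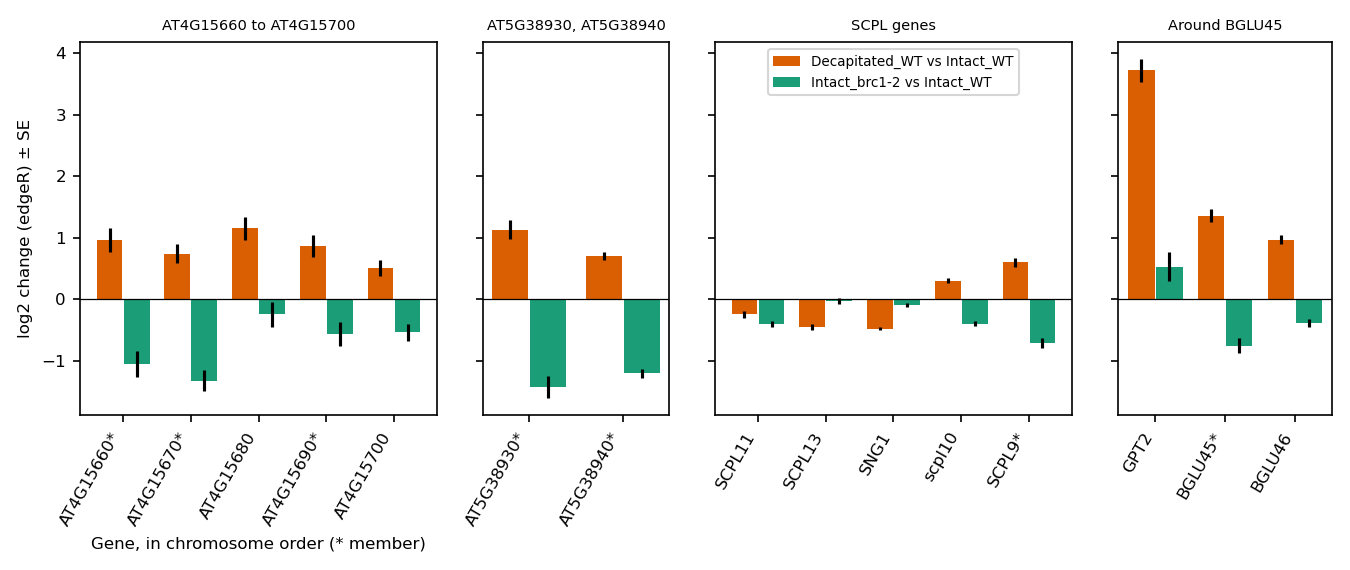
Bars give the edgeR log2 change ± SE of genes in 4 chromosomal neighbourhoods, in chromosome order, for Decapitated_WT (left bar of each pair) and Intact_brc1-2 (right bar), each against Intact_WT; an asterisk marks a member. AT5G38900 and BR6OX1, the nearest tested genes beside AT5G38930 and AT5G38940, are not drawn. Members and BGLU46, SCPL10 and AT4G15700 have an upward left bar and a downward right bar, whereas SCPL11, SCPL13 and SNG1 point downwards after decapitation and GPT2 points upwards in both.

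A flavonoid and anthocyanin list held no member. Of its 27 genes tested, 8 were called lower in brc1-2 and higher after decapitation, or 29.6%, beside 1.49% of all genes. The list was chosen with earlier results of these data known, so this share is a description only. These were DFR and LDOX, late steps of anthocyanin synthesis, UF3GT, AT5MAT, UGT78D1, UGT78D2 and SCPL10, which decorate anthocyanins or flavonols, and GSTF12, needed to bring anthocyanins into the vacuole. DFR averaged 127 CPM in Decapitated_WT, 45.2 in Intact_brc1-2 and 98.0 in Intact_WT, with log2 changes of 0.34 ± 0.04 (edgeR adjusted p = 1.8e-09) and -1.12 ± 0.04 (adjusted p = 3.3e-20). The other 19 genes were not called this way. The anthocyanin regulators PAP1, MYB113 and MYB114 fell in both contrasts, PAP1 with log2 changes of -1.87 ± 0.07 in brc1-2 (adjusted p = 1.1e-19) and -0.86 ± 0.06 after decapitation (adjusted p = 7.9e-13), and so did LBD37, LBD38 and LBD39. FLS1, flavonol synthase, rose in both, by 0.48 ± 0.04 in brc1-2 (adjusted p = 2e-11) and 0.61 ± 0.04 after decapitation (adjusted p = 9.1e-14), as did CHIL, EGL3 and MYB111. TT4, chalcone synthase, rose after decapitation by 0.35 ± 0.03 (adjusted p = 7.5e-12) and was not called in brc1-2, at 0.02 ± 0.03 (adjusted p = 0.56). LDOX, UF3GT and AT5MAT met the rule in axillary tissue and were removed by the clause on seedlings.

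That clause removed 8 genes in all, whose L on rac-GR24 ranged from 1.12 to 2.92. Besides the 3 anthocyanin genes they were GA2OX2, which inactivates gibberellins, GASA5, of a gibberellin-regulated peptide family, CYP81F4, which modifies indole glucosinolates, AT5G37990 and AT5G38020. GA2OX2 averaged 25.3 CPM in Decapitated_WT, 5.04 in Intact_brc1-2 and 9.44 in Intact_WT, and 5.49 CPM in rac-GR24 seedlings against 1.62 in DMSO seedlings. CYP81F4 averaged 20.6 CPM in Decapitated_WT, 4.48 in Intact_brc1-2 and 11.1 in Intact_WT, and 10.3 CPM on rac-GR24 against 4.58 on DMSO.

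In seedlings, the members that stayed showed no common direction on rac-GR24. BRC1 had 6.66, 3.69 and 2.82 CPM on rac-GR24 and 0.00, 0.00 and 0.05 CPM on DMSO. The members' L on rac-GR24, bounded above by the rule, had a median of 0.16. Groups overlapped for 17 members, every rac-GR24 library was above every DMSO library for 12, where this held for 20.5% of all genes, and below for 6, where it held for 18.4%. Of 30 members with enough counts to test, 8 were called higher, where 12.4% of all genes tested were, and 6 lower, where 11.7% were. The 5 members with too few counts were TPS04, AT1G73325, AT1G59920, AT4G22620 and AT4G01985, none of which reached 0.3 CPM in a seedling library.

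The members called higher on rac-GR24 were BGLU45, PYK10, XTH31, AT2G37130, AT3G20370, AT4G34950, AT5G26260 and NTM1. PYK10 had 4978, 4789 and 5065 CPM on rac-GR24 and 2667, 2779 and 3095 CPM on DMSO. XTH31 had 412, 427 and 439 CPM on rac-GR24 and 289, 299 and 283 CPM on DMSO. AT5G26260 was scarce in axillary tissue but had 83.8, 82.7 and 83.0 CPM on rac-GR24 and 38.7, 43.2 and 60.5 CPM on DMSO. For these 3 genes the treated libraries lay above all mock libraries. Whole seedlings include roots, and the 5 root markers other than PYK10 summed to 56.6 to 60.8 CPM on rac-GR24 and 56.9 to 60.2 CPM on DMSO, overlapping ranges that rest mainly on SHR and SCR, neither of which was called. The root hair markers RHD6 and SHV2 (COBL9) were called higher, as PYK10 was. RHD6 averaged 3.59 CPM on rac-GR24 and 1.95 on DMSO, a log2 change of 0.86 ± 0.22 (edgeR adjusted p = 0.012), and SHV2 7.13 CPM on rac-GR24 and 4.73 on DMSO, a log2 change of 0.57 ± 0.15 (adjusted p = 0.011). The part of root tissue in PYK10's level was not tested. The calls of AT4G34950 and NTM1 were lost in 4 and 2 of the fits that left out a library.

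Those called lower were AT4G15660, AT4G15670, AT4G15690, SCPL9, ATSBT5.2 and FAF3. AT4G15660 had 0.43, 0.37 and 0.18 CPM on rac-GR24 and 2.04, 3.53 and 2.36 CPM on DMSO. AT4G15670 had 0.62, 0.58 and 0.24 CPM on rac-GR24 and 2.16, 2.50 and 3.15 CPM on DMSO. AT4G15690 had 1.29, 0.79 and 0.81 CPM on rac-GR24 and 4.37, 4.93 and 5.49 CPM on DMSO. The whole run on chromosome 4 was low on rac-GR24, since the non-members AT4G15680 and AT4G15700 averaged 0.92 and 0.74 CPM there, against 4.85 and 3.90 CPM on DMSO, with log2 changes of -2.40 ± 0.23 (edgeR adjusted p = 4e-06) and -2.42 ± 0.25 (adjusted p = 7.9e-06). ATSBT5.2 had 25.2, 24.3 and 22.8 CPM on rac-GR24 and 37.8, 37.9 and 39.7 CPM on DMSO. SCPL9 had 1.5, 0.66 and 1.08 CPM on rac-GR24 and 2.85, 1.99 and 2.41 CPM on DMSO. FAF3 had 8.44, 8.17 and 7.27 CPM on rac-GR24 and 8.80, 9.68 and 12.5 CPM on DMSO, a small gap whose call was lost in 5 of the fits that left out a library.

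**Figure D4:**
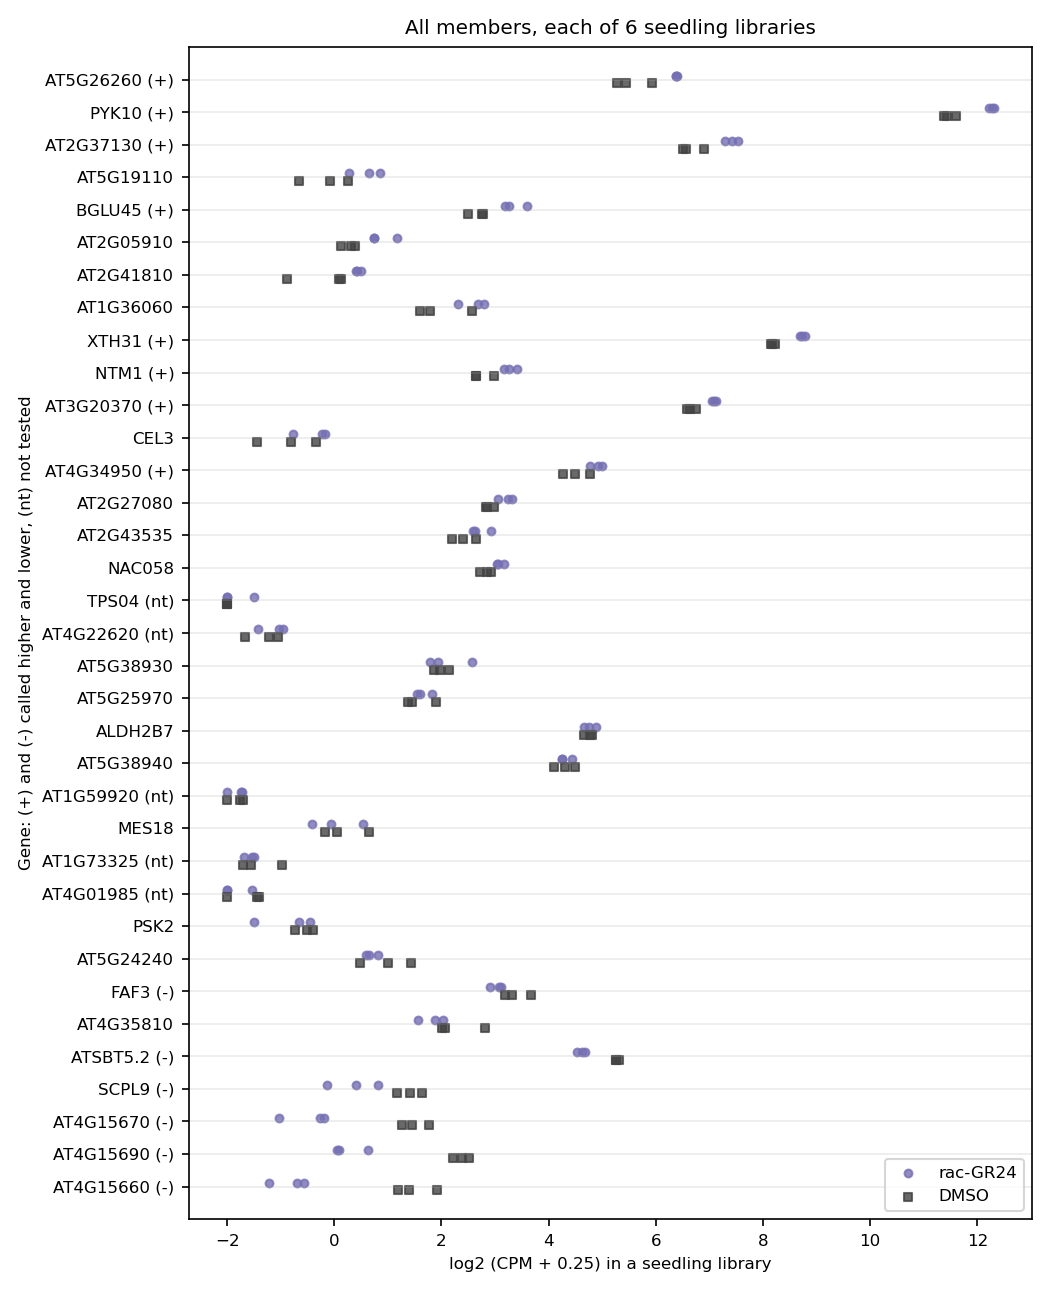
Each row is 1 of the 35 members, sorted by its change in seedlings, and each mark is log2 of CPM + 0.25 in 1 of 3 rac-GR24 (circles) or 3 DMSO libraries (squares); plus and minus signs mark genes called higher or lower and nt those not tested. PYK10 is the most abundant member in seedlings, and the 3 genes of the chromosome 4 run lie at the bottom, with all rac-GR24 libraries below all DMSO libraries.

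The edges of the set were soft. Just inside the brc1-2 threshold were AT4G15690, AT1G36060 and AT3G20370, with L of -0.501, -0.512 and -0.523, and just outside were RTFL7, AT4G15700 and AT5G19100, with L of -0.499, -0.496 and -0.491. RTFL7, of the ROTUNDIFOLIA-like small peptides, had an L of 2.57 after decapitation. Just inside the decapitation threshold were PSK2, AT1G59920 and CEL3, with L of 0.50, 0.51 and 0.52, and just outside were AT4G02360, MYB108 and AT5G11410, with L of 0.49, 0.48 and 0.48. When each axillary library was left out in turn, 25 members met the rule in all 9 cases, and 10 failed it at least once: TPS04, AT1G36060, CEL3, AT1G59920, AT3G20370, PSK2, AT2G41810, AT2G43535, AT4G22620 and AT4G15690. The members lay on all 5 chromosomes, with 8, 7, 4, 8 and 8 on chromosomes 1 to 5. Their median exon length of 1400 bases was below the 1789 bases of all genes at 1 CPM or more.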

How the data were processed

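Per the file headers, the authors deposited gene-level counts, 1 table for axillary tissue and another for seedlings. TAIR10, cutadapt 3.5, fastp 0.23.1, HISAT2 2.0.5, SAMtools 1.13, featureCounts 2.0.1 and DESeq2 1.32.0 appear in the submitters' processing notes without order or settings. Whether strand was used in counting is not stated, and reads of overlapping genes on opposite strands cannot be separated. Among counts of 1 to 20, even numbers made up 60.8 to 71.8%, so counts may include both mates of a pair and are not independent fragments. The seedling table ended in 1 incomplete line, which was left out. For brc1-2, 2 columns carried the same number and are called 2a and 2b. The 8 CUT&Tag samples were not analysed here.

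CPM were computed from column sums. Changes, SE and adjusted p came from edgeR 4.0.16 (R 4.3.3): TMM, filterByExpr with a minimum count of 10, quasi-likelihood F test, Benjamini-Hochberg over all genes tested, threshold 0.05. The 9 axillary libraries entered 1 fit and the 6 seedling libraries another, and each was checked on simulated counts. The SE was taken from the fold change and its F value and may be too narrow at low counts. P-values set a group difference against the spread between libraries, which may be technical. Both axillary contrasts share the Intact_WT libraries. The members and lists were chosen with earlier results of these data known, and families and neighbours after the members were. Named genes were members on a list, the most abundant, those with the largest changes, those nearest the thresholds and transcription factors; the remaining members were added so that each is accounted for, and relatives and neighbours called in both directions were named after their values were seen. Names came from RefSeq TAIR10.1. Families held only genes whose symbol or synonym there carried the family name, so relatives without such a name were not examined. Alternatives changed scaling, pseudocount, floor, filter, tool, threshold and libraries.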

Additional observations from a re-analysis of the deposited data

How the results depend on the processing

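The number of members was 35, and it was 33 under TMM or DESeq2 scaling, 46 with 0.05 CPM added, 39 with a floor of 0.5 CPM or with group medians, and 43 without the seedling clause. It was 22 with 1 CPM added and 21 with a floor of 5 CPM, both of which act on scarce genes by construction, and 3 with L thresholds of 1. Leaving out 1 library at a time gave 34 to 40 members. Members called lower in brc1-2 numbered 32 to 35 without 1 library, called higher after decapitation 33 to 35, called higher in decapitated plants against brc1-2 35 each time, and called on rac-GR24 6 to 8 higher and 5 to 7 lower. DESeq2 called 35, 34 and 35 members in the 3 axillary contrasts, and no fit of a member's called change turned its direction. At a threshold of 0.01, 30 members were called lower in brc1-2 and 32 higher after decapitation. The share of all genes called is not given for the settings of this section, so nothing is read from these counts. Same-numbered libraries deviated together by correlations of 0.02 to 0.04 (decapitated and intact) and of -0.08 to 0.13 (seedlings). Differently numbered libraries gave -0.03 to 0.02 and -0.12 to 0.16. With 3 libraries per group, these values cannot show whether same-numbered libraries were handled together. With a replicate block, 34 members were called higher after decapitation, and 9 higher and 5 lower on rac-GR24. No paired analysis was possible for brc1-2 because its columns repeat a number. The planned promoter motif search was not run, as no promoter sequences were used here. Members under 1 CPM in brc1-2 rest on few counts, and their log2 changes depend most on the pseudocount.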
